A study of Mus musculus with 2 samples.

Results

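The cells described here are progenitors from the mouse fetal liver that carry much transcript of the primary (azurophil) granule and little of S100a8 and S100a9. They were chosen by their own counts: at least 10 UMIs of Mpo, at least 10 UMIs of Elane, Prtn3 and Ctsg together, and fewer than 20 UMIs of S100a8 and S100a9 together. A UMI (unique molecular identifier) marks an original RNA molecule. The rule found 683 cells among the 7875 that passed a filter of 1000 or more genes and no more than 20% of UMIs from mitochondria, which is 8.67%. Of these, 365 came from the WT library and 318 from the KO library. The study sorted lineage-depleted E14.5 fetal liver cells of CD1 mice, an outbred stock, for LSK cells (lineage-negative, SCA1-positive, cKIT-positive) and sequenced them by droplet-based 3′ RNA sequencing. Embryos were pooled into a single library per genotype, 2 for IκBα WT and 3 for IκBα KO, the latter with a targeted germline knockout of Nfkbia (allele tm1Bal), the gene of the NF-κB inhibitor IκBα. Both genotypes received no treatment and shared stock, age, tissue and sort. The sample titles say LT-HSC, the cell type entries say LSK, and, per the study's methods, CD11b was left out of the lineage antibodies for fetal liver.

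Neutrophils develop in steps that the order of their granules records. Progenitors first make the primary granule proteins, which are myeloperoxidase (Mpo) and the serine proteases neutrophil elastase (Elane), proteinase 3 (Prtn3) and cathepsin G (Ctsg). Later stages make the specific granule proteins, such as lactoferrin (Ltf), cathelicidin (Camp) and Ngp, and the S100a8 and S100a9 subunits of calprotectin. PU.1 (Spi1) and C/EBPα (Cebpa) open the myeloid programme, C/EBPε (Cebpe) and Gfi1 drive the granulocytic arm, and Irf8 drives the monocytic and dendritic arm. Ms4a3 marks committed granulocyte and monocyte progenitors in the bone marrow.

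The 5 defining genes lie on 4 chromosomes of build GRCm38 (GENCODE vM21, all protein-coding). Elane (chromosome 10, 79886247 to 79888215, plus strand) and Prtn3 (chromosome 10, 79874476 to 79883174, plus strand) are neighbours. Mpo is on chromosome 11 (87793581 to 87804413, plus strand), Ctsg on chromosome 14 (56099881 to 56102574, minus strand) and Ms4a3 on chromosome 19 (11629496 to 11640851, minus strand). Their promoters are shown because these genes varied together among the selected cells, as described further on. The stretches are RefSeq sequences (GRCm38.p6) from the 250 bases before each RefSeq start, without bases that GENCODE places in an exon of the gene, 5′ to 3′ on the gene's own strand. The RefSeq start of Prtn3 lies downstream of its GENCODE start, so its stretch lies inside the GENCODE span given above. Capitals mark matches to GAGGAA (PU.1 type), TTNNGNAA (C/EBP type) or TGTGGT (RUNX type) on either strand.
Mpo, chr11:87793534-87793580, plus strand: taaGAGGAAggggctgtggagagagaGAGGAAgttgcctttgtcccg
Elane, chr10:79886062-79886246, plus strand: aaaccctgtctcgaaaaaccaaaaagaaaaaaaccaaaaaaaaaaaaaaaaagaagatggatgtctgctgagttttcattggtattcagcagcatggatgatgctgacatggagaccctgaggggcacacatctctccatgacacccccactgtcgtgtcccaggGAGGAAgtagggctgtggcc
Prtn3, chr10:79879417-79879613, plus strand: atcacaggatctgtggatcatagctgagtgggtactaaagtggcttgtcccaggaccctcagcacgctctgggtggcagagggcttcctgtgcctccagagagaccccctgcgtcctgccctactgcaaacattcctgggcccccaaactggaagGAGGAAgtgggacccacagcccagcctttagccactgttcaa
Ctsg, chr14:56102575-56102824, minus strand: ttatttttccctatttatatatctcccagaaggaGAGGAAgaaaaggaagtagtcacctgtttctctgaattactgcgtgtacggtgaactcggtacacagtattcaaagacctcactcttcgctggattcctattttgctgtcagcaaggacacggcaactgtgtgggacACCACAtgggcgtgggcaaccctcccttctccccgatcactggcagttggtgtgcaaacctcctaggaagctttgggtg
Ms4a3, chr19:11640852-11641101, minus strand: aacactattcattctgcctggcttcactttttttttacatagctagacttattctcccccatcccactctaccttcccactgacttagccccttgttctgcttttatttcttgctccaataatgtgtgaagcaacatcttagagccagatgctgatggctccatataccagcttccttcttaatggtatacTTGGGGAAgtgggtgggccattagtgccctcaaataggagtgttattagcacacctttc

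GAGGAA stood in the 250 bases of Mpo (2 matches), Elane, Prtn3 and Ctsg (1 match each), always on the gene's own strand. It was found in 23.3% of all 32851 promoters of that length. The Elane and Prtn3 matches began 85 and 95 bases before the RefSeq starts. Ms4a3 had no GAGGAA and instead 1 TTNNGNAA match, which 36.8% of all promoters held, beginning 59 bases before its start. The only TGTGGT match was in Ctsg, on the opposite strand, against 14.05% of all promoters. These are matches of letters and not measured binding.

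The WT library was the deeper one. The selected cells had a median of 35185 UMIs in WT (8573 to 178488) and 26387 UMIs in KO (11371 to 135456), and all cells kept had medians of 28065 and 19560. The selected cells summed to 15039578 UMIs in WT and 10320163 in KO, so that the floor of 3 UMIs lay at 0.199 and 0.291 CPM (counts scaled to a total of 1000000 per set of cells). Among 3840 WT and 4928 KO barcodes, 7 occurred in both libraries, and 1 of the selected cells carried such a barcode. Each library was a single pool, so no test was possible. All intervals are 95% intervals that cover counting error only, not differences between cells, embryos or libraries. In KO, 49 of the selected cells (15.4%) had UMIs of Y-linked genes and none of Xist, and in WT there were 0 such cells.

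The rule was met in different ways by its genes. Mpo had a median of 39 UMIs per cell in WT (10 to 410) and 45 in KO (10 to 332). Prtn3 had a median of 28 in WT (2 to 454) and 28.5 in KO (2 to 390), and it made up 69.5% of the UMIs of the 3 proteases in WT and 65.2% in KO. Ctsg was at 0 in 149 WT cells (40.8%) and 67 KO cells (21.1%). Elane was at 0 in 256 WT cells (70.1%) and 180 KO cells (56.6%). Ms4a3, which the rule did not use, was at 0 in 248 WT cells (67.9%) and 179 KO cells (56.3%). Thus the class was in practice one of Mpo and Prtn3, and most of its cells had no UMI of Elane or Ms4a3. Because that goes against a class made only of committed neutrophil progenitors, the cells are called Mpo-high cells in the following.

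**Figure D1:**
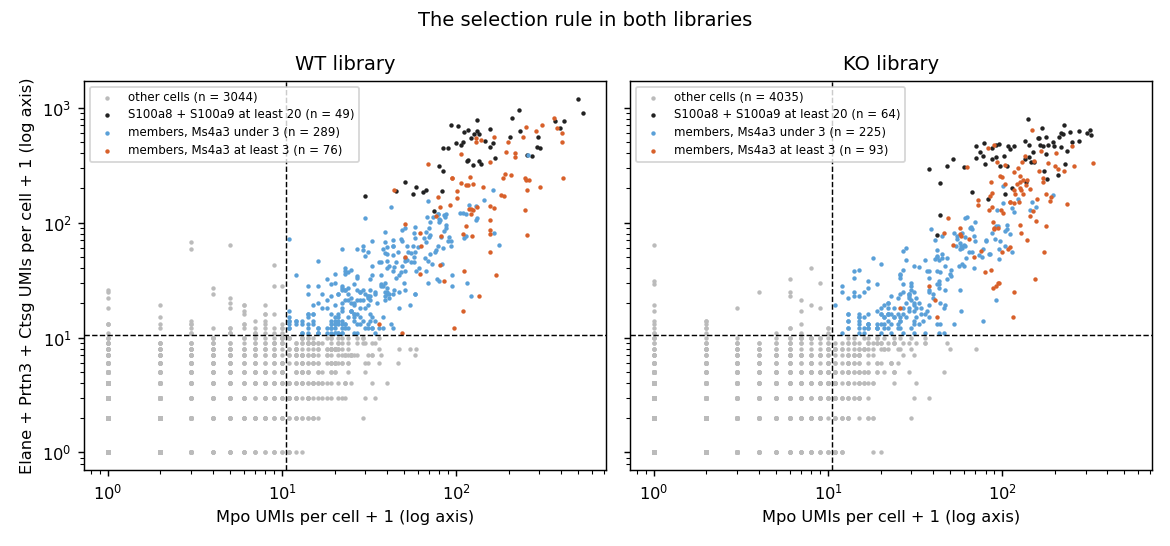
UMIs per cell of Mpo (x axis) and of Elane, Prtn3 and Ctsg together (y axis), both as count + 1 on log axes, with 1 point for each cell kept in the WT (left) and KO (right) library and dashed lines between 9 and 10 UMIs. Cells with at least 3 Ms4a3 UMIs (76 in WT, 93 in KO) sit at the upper end of the selected cells, next to the cells past the S100 bound (49 and 64).

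Free RNA in the droplets was judged from erythroid cells, taken as cells with at least 5 Klf1 UMIs and fewer than 10 of Mpo. An Mpo UMI was found in 19.3% of 1500 such WT cells (median 37101.5 UMIs) and 18.0% of 1776 KO cells (median 26375.5). Because these cells were defined by fewer than 10 Mpo UMIs, they do not show how often free RNA alone could meet the rule. Ms4a3 UMIs were found in 2.40% and 2.14% of them, against 32.1% and 43.7% of Mpo-high cells. Cebpe UMIs were found in 0.400% and 0.282%, against 25.8% and 30.8%, and Irf8 UMIs in 3.07% and 3.38%, against 54.8% and 44.3%. The Ms4a3, Cebpe and Irf8 found in Mpo-high cells thus lay above that background in both libraries.

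The bounds of the rule cut through a continuum. There were 138 Mpo-high cells with 10 to 14 protease UMIs (20.2%), and 238 further cells had enough Mpo but only 5 to 9 protease UMIs. Just 53 cells had 10 to 14 Mpo UMIs, and 44 lay outside with 5 to 9. On the S100 side, 16 cells held 10 to 19 UMIs and 20 cells outside held 20 to 39. At that side the cells inside had medians of 172.5 Mpo and 439 protease UMIs and the cells outside had 159 and 459.

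The surface receptors of the sort were looked at next. Kit, the stem cell factor receptor, was detected in 79.7% of WT cells (291) and 72.0% of KO cells (229). Ly6a, which encodes SCA1, was detected in 13.4% of WT cells (49) and 6.29% of KO cells (20), at 4.26 and 2.52 CPM. It was detected in 2.07% and 1.86% of the erythroid cells. Itgam, the gene of CD11b, reached 5.52 CPM in WT and 4.36 in KO, and Ly6g, a marker of later neutrophils, had 0 UMIs in both. In all other cells Ly6a was detected in 12.0% of WT and 8.39% of KO cells, and Kit in 55.4% and 41.9%. Most Mpo-high cells, sorted as SCA1-positive, thus had no detected SCA1 transcript, and the same held for all other cells.

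The genes most particular to Mpo-high cells were taken as those with the highest ratio to the level in all other cells, among genes with at least 500 UMIs. Since these cells were picked on their counts, such ratios are descriptions. Cebpa and Cebpe stood at 9.30 and 9.08 times, and Irf8 at 7.12 times, so regulators of both myeloid arms were among them. Others were the histidine decarboxylase gene Hdc (9.52), the coagulation factor XIII gene F13a1 (9.37), the annexin gene Anxa3 (8.16), the chemokine gene Ccl9 (8.59), Rab44 (9.50) and Plac8 (6.69). Gria3 (10.96), Atp8b4 (10.40), Tifab (7.80), F630028O10Rik (7.66), Glipr1 (6.87), Ms4a6c (6.75) and Milr1 (6.503) followed, beside Mpo (10.4), Ctsg (8.17) and Prtn3 (7.01), which the rule used. Elane reached only 2.74 times, because cells past the S100 bound, among the others, held 3668 CPM of it in WT and 3743 in KO. Those cells also held more Mpo, 4816 and 4956 CPM against 1606 and 1997 in Mpo-high cells. Cebpe stood there at 288.8 and 297.2 CPM, against 36.7 and 45.1 in Mpo-high cells without S100a8 or S100a9 UMIs. Other cells with at least 5 Irf8 UMIs held 369.5 and 379.5 CPM of Irf8, against 97.9 and 82.4. These genes were thus not confined to the class.

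Of the 11 primary granule genes that had at least 50 UMIs and were not used by the rule, 7 were at least 2 times higher in Mpo-high cells than in other cells, as were 6.56% of all 10272 genes with that many UMIs. As these cells were picked for granule transcripts, nothing is read from that count. The genes included the granule proteoglycan serglycin (Srgn, 582.5 CPM in WT and 649.4 in KO), the cathepsin inhibitor Cst7 (50.8 and 55.4), lysozyme Lyz2 (169.5 and 172.8) and the granule membrane protein Cd63 (123.7 and 182.7). The protease inhibitor Serpinb1a, which protects the cell from its own granule proteases, stood at 192.4 and 217.5 CPM, 5.90 times the level of other cells. The specific granule genes were nearly silent. Ngp, Chil3, Cd177 and Orm1 had 0 UMIs in both libraries. Camp had 2 UMIs in WT and 5 in KO, Ltf 3 and 2, and Lcn2 2 and 3. Hp (haptoglobin) was the exception, with 612 and 605 UMIs, and it made up most of the 652 and 651 UMIs of that list. Ncf1, a subunit of the NADPH oxidase, which feeds hydrogen peroxide to myeloperoxidase, stood at 37.6 CPM in WT and 36.1 in KO, 3.76 times the level of other cells.

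Within 150 kb of Prtn3, 14 protein-coding genes besides Prtn3 and Elane had at least 50 UMIs in Mpo-high cells, and 4 of them were at least 2 times higher than in other cells, against 6.56% of all genes. These were the serine protease gene Prss57 (2.88), Palm (4.25), Plppr3 (6.16) and Arid3a (2.71). The other 10 lay between 1.01 and 1.88. Cfd, the complement factor D gene next to Elane, had 0 UMIs. The Plppr3 annotation overlaps that of Prtn3 by 159 bases on the opposite strand, at the annotated starts of both genes. The assignment of reads there was not examined.

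**Figure D2:**
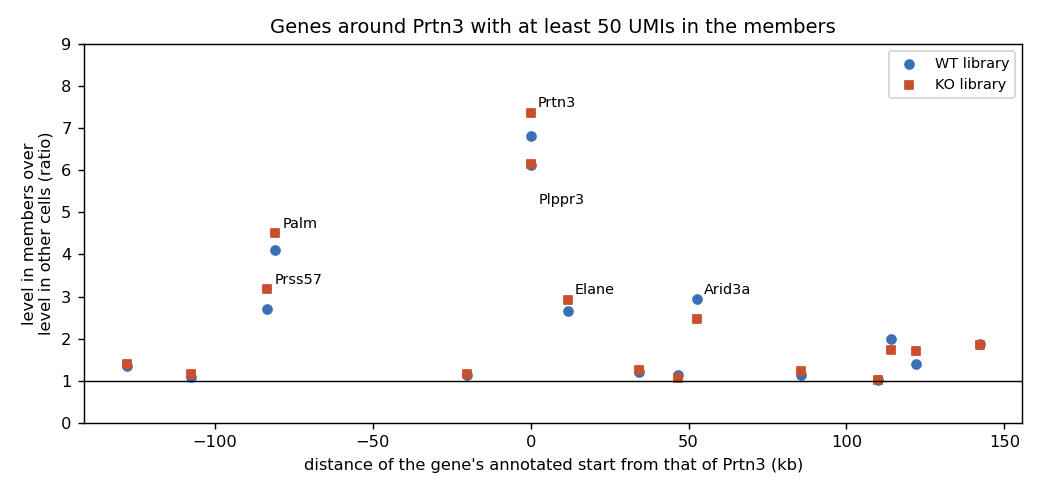
Ratio of the level in Mpo-high cells to that in all other cells (y axis, from 0) against the distance of each gene's annotated start from that of Prtn3 in kb (x axis), for the 16 genes with at least 50 UMIs, with 1 point for each library. The 6 named genes lie above 2 and the remaining genes below 2.

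The Mpo-high cells were not uniform, and Ms4a3 and Irf8 split them. With cutoffs chosen after their values were seen, 169 cells (24.7%) had at least 3 Ms4a3 UMIs and held 96.3% of its UMIs. Another 163 cells (23.9%) had at least 5 Irf8 UMIs and held 85.7% of its UMIs. Only 20 cells met both cutoffs, and 371 cells (54.3%) met neither. The 3 exclusive sets had similar depths, with medians of 29997 UMIs (Ms4a3 without Irf8), 34826 (Irf8 without Ms4a3) and 30114 (neither).

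Cells with Ms4a3 and without Irf8 were the granule-rich ones. Elane stood there at 775.5 CPM in WT and 807.9 in KO, against 29.8 and 75.7 in the Irf8 cells and 4.36 and 11.1 in the cells with neither. Cebpe stood at 217.3 and 254.7 CPM, against 4.48 and 2.58 and against 7.18 and 12.5. Alas1, the first enzyme of haem synthesis and a source of the Mpo cofactor, stood at 278.0 and 327.2 CPM, against 35.1 and 39.2 in the Irf8 cells. Mpo itself stood at 3702 and 4119 CPM, against 1258 and 1671 in the Irf8 cells and 934.6 and 1108 in the cells with neither. Calreticulin (Calr), a chaperone that myeloperoxidase passes through on folding, stood at 2001 and 2310 CPM, against 762.5 and 896.4 in the Irf8 cells. Every one of these levels was higher in the Ms4a3 cells of either library than in the other sets of both libraries.

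Cells with Irf8 and without Ms4a3 carried monocyte genes. Csf1r, the receptor of macrophage colony-stimulating factor, stood at 72.3 CPM in WT and 62.8 in KO, against 7.59 and 7.21 in the Ms4a3 cells. The chemokine receptor Ccr2 stood at 68.6 and 51.0 CPM, against 1.81 and 2.54 by the same order of sets. Klf4, a monocyte regulator, stood at 18.2 and 20.6 CPM against 1.45 and 1.27. Of the 3 sets these cells also had the highest Ighm, the immunoglobulin heavy chain gene that lymphoid-primed progenitors transcribe early, at 105.8 and 70.1 CPM. Prtn3 was shared between the arms, at 1312 and 1595 CPM in the Irf8 cells and 3203 and 3258 in the Ms4a3 cells. The cells with neither had the most Hlf, a stem cell regulator, with 40.9 CPM in WT and 21.6 in KO.

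**Figure D3:**
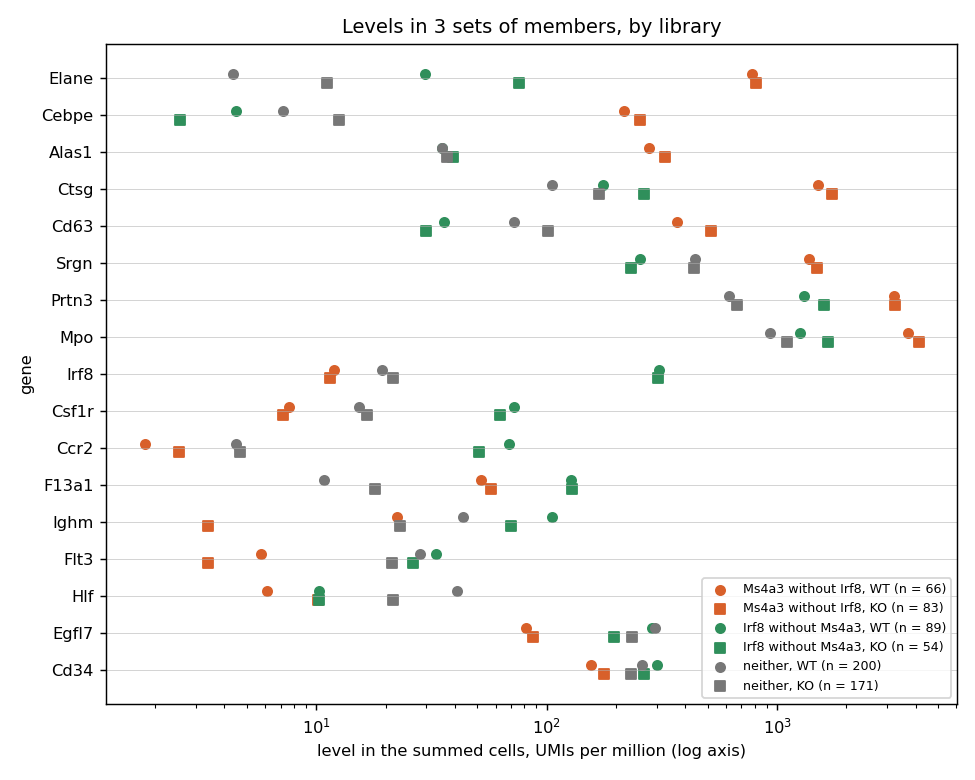
Level in the summed cells (x axis, CPM, log axis) of 17 genes (y axis) in 3 exclusive sets of Mpo-high cells, circles for WT and squares for KO. Granule genes such as Elane (775.5 and 807.9 CPM) lie to the right in the Ms4a3 cells and monocyte genes such as Csf1r (72.3 and 62.8 CPM) in the Irf8 cells.

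Across the 683 cells, the genes most like Ms4a3 were Elane (Pearson's r = 0.84), Alas1 (0.80), Cebpe (0.78), Srgn (0.75) and Ctsg (0.75), among 6578 genes with at least 300 UMIs. Mpo (0.71) and Prtn3 (0.68) stood further down that order. These r values are across cells that share library and depth, on log2 of 1 plus UMIs per 10000, and have no p. In WT alone r was 0.84 for Elane and 0.74 for Cebpe, and in KO alone 0.84 and 0.80. The least alike were Tmsb10 and Egfl7 (both -0.58), a thymosin gene and a gene of early progenitors. The genes most like Irf8 were Tifab (0.60), Csf1r (0.57), Mef2c (0.56), Ccr2 (0.56) and Pld4 (0.55). The least alike to Irf8 was Vamp5 (-0.50).

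A small set carried eosinophil transcripts. In 13 cells (5 WT, 8 KO) the eosinophil granule genes Prg2, Prg3 and Epx summed to at least 5 UMIs, and these cells held 95.2% of all UMIs of the 3 genes in Mpo-high cells. They had Cebpe at 814.9 CPM, Mpo at 3826 CPM and Cd63 at 1238 CPM over both libraries, and Irf8 had 0 UMIs there. Prg3 was 44.9 times higher in Mpo-high cells than in other cells, with 220 UMIs over 15 cells of WT and 268 over 24 cells of KO. The mast cell protease gene Cpa3 was more widespread, detected in 113 cells of WT and 103 of KO. It stood at 172.5 and 149.6 CPM in the Ms4a3 cells against 36.9 and 3.61 CPM in the Irf8 cells.

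The S100 content marked the late end of the class. Cells with 0 S100a8 and S100a9 UMIs numbered 320 in WT and 255 in KO, cells with 1 to 4 UMIs 32 and 45, and cells with 5 to 19 UMIs 13 and 18. Over these bins Elane stood at 70.2, 394.0 and 2366 CPM over both libraries, and at 3708 CPM past the bound. Ms4a3 stood at 63.1, 236.8, 910.1 and 1181 CPM by the same order. Fcnb, a ficolin gene of the next neutrophil stage, stood at 0.469, 4.70, 23.0 and 170.6 CPM, and the stefin gene Stfa1 at 24.1, 174.0, 903.4 and 4627 CPM. Camp reached only 2.87 CPM in the bin of 5 to 19 UMIs and 161.1 CPM past the bound. Cd34, a progenitor surface antigen, stood at 249.1, 199.9, 103.4 and 64.5 CPM. Camp past the bound was found in 22 of 113 cells. The bins are made from genes of the rule, so these levels are descriptions.

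**Figure D4:**
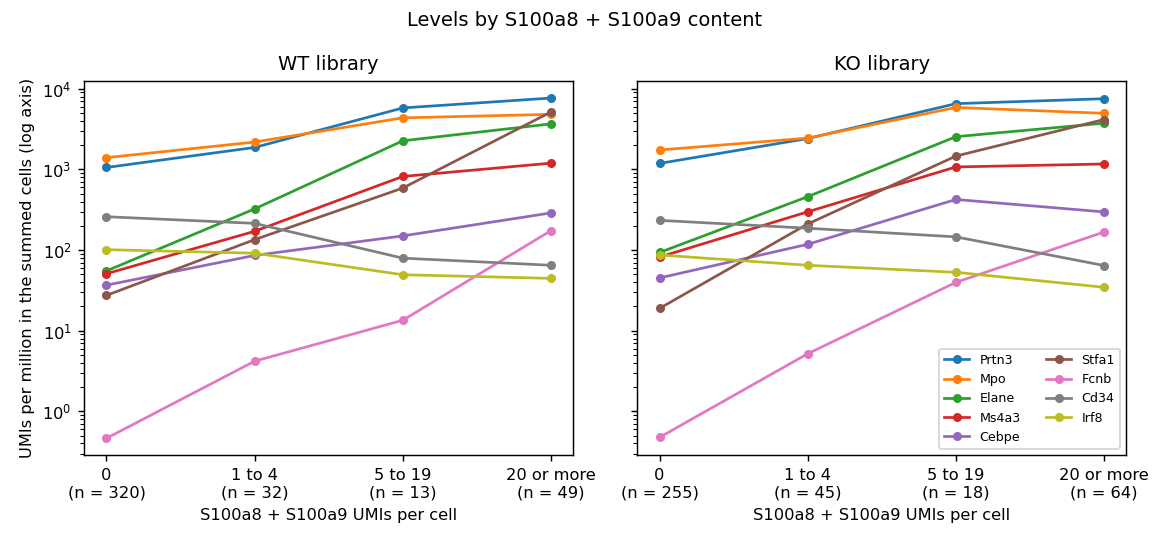
Level in the summed cells (y axis, CPM, log axis) of 9 genes by the S100a8 and S100a9 UMIs per cell (x axis), for WT (left) and KO (right), with the number of cells under each bin. Elane is higher (70.2, 394.0 and 2366 CPM over both libraries) and Cd34 lower over the bins inside the class, and the last bin lies outside the selected class.

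Turning to the genotypes, the targeted gene was checked first. In Mpo-high cells Nfkbia (chromosome 12, 55489410 to 55492647, minus strand) had 263 UMIs over 159 cells of WT and 2 UMIs over 2 cells of KO, 17.5 against 0.194 CPM. The log2 ratio of KO over WT was -6.5 (-9.55 to -4.63), and -7.85 in all other cells.

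Mpo-high cells made up 10.6% of WT cells (9.55 to 11.6) and 7.20% of KO cells (6.45 to 8.002). The difference of -3.36 percentage points (-4.66 to -2.07) rested on a rule in absolute UMIs and libraries of unequal depth. Thinning to 8500 UMIs before the rule was applied left out cells with fewer UMIs, 129 in WT and 379 in KO, none of them Mpo-high. Among the thinned cells the shares were 4.69% and 4.33%, and the difference was -0.35 points (-1.34 to 0.61). With thresholds scaled to each cell's depth they were 8.13% and 6.07%. That difference was -2.06 points (-3.24 to -0.90). Of the 2 ways to account for depth, the interval thus reached 0 with thinning and stayed below 0 with scaled thresholds.

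Of 10272 genes with at least 50 UMIs in Mpo-high cells, 79 (0.769%) were at least 2 times higher in KO and 65 (0.633%) at least 2 times lower, with a median log2 ratio of 0.02. The counting interval lay wholly above 0 for 12.5% of these genes and wholly below 0 for 8.37%. These shares are the background for the lists that follow.

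The cells were chosen on Mpo, Elane, Prtn3 and Ctsg, so the KO and WT levels of these genes are descriptions. Ctsg stood at 412.3 CPM in WT and 599.6 in KO, a log2 ratio of 0.54 (0.49 to 0.59). Elane stood at 178.8 and 237.8 CPM, a log2 ratio of 0.41 (0.33 to 0.49). Mpo was 0.31 (0.29 to 0.34) and Prtn3 0.22 (0.19 to 0.25). Of the 11 other primary granule genes tested, 5 had intervals above 0 (Cd63, Hp, Nkg7, Prss57 and Srgn), 1 below 0 (Ctsd), and 0 passed 2-fold. Hp was also counted in the list of specific granule genes. The 11 genes had a median log2 ratio of 0.13, against 0.14 in all other cells, and Cd63 was 0.56 (0.47 to 0.66). Among early granulocyte progenitor genes, 6 of 10 had intervals above 0 and 2 below, with Ms4a3 at 96.4 and 150.5 CPM, a log2 ratio of 0.64 (0.54 to 0.75), and Cebpe at 0.59 (0.44 to 0.74). In all other cells the same ratios were 0.28 for Ctsg, 0.28 for Elane, 0.19 for Ms4a3 and 0.31 for Cebpe.

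Depth moved with this result. A cell of the shallower KO library needs a larger share of Mpo to reach 10 UMIs, and with thresholds scaled to depth (281 WT and 268 KO cells) the log2 ratios were 0.10 for Elane, 0.30 for Ctsg, 0.31 for Ms4a3, 0.33 for Cebpe, 0.19 for Mpo and 0.04 for Prtn3. Alas1 moved from 0.34 to -0.0015 there. Cells with at least 3 Ms4a3 UMIs made up 20.8% of WT and 29.2% of KO Mpo-high cells, a difference of 8.42 points (1.72 to 15.1). It was 5.54 points (-2.53 to 13.6) with scaled thresholds, and 9.50 points (2.51 to 16.5) in cells with a Ms4a3 UMI after thinning to 8500 UMIs. Cells with at least 5 Irf8 UMIs made up 27.1% and 20.1%, a difference of -7.00 points (-13.5 to -0.40), -10.8 points (-18.2 to -3.17) with scaled thresholds, and -2.99 points (-10.2 to 4.32) for cells with an Irf8 UMI after thinning.

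Within the cells with Ms4a3 and without Irf8 (66 WT, 83 KO), the log2 ratio of Elane was 0.06 (-0.03 to 0.15) and that of Prtn3 0.02 (-0.02 to 0.07). The intervals of both proteases spanned equal levels, while Mpo was 0.15 (0.11 to 0.19). The rule used Elane, Prtn3, Ctsg and Mpo, and the sets were cut after their values were seen. The ratios of these genes within the sets are thus descriptions. The highest cell held 230 of the 2145 Elane UMIs of that set in WT and 121 of 1906 in KO. Of all Elane UMIs in Mpo-high cells (2689 and 2454), cells with at least 5 Klf1 UMIs held 636 in WT and 68 in KO. Their part in the ratio was not tested. In the Irf8 cells Elane was 1.35 (0.98 to 1.71) and Prtn3 0.28 (0.22 to 0.35), and in the cells with neither gene 1.35 (0.72 to 2.00) and 0.12 (0.06 to 0.18). Elane rested there on 113 and 147 UMIs and on 34 and 62 UMIs. In the Ms4a3 cells Ctsg (0.19, 0.13 to 0.26), Cebpe (0.23, 0.06 to 0.39) and Cd63 (0.50, 0.38 to 0.62) were still higher in KO. Stfa1, a cysteine protease inhibitor of the stefin family, stood at 202.1 CPM in WT and 386.1 in KO in the Ms4a3 cells. The highest cell there held 79 of its 559 UMIs in WT and 218 of 911 in KO. Stfa1 stood at 70.2 and 34.0 CPM in the Irf8 cells and at 2.43 and 4.29 in the cells with neither gene. Over all Mpo-high cells its log2 ratio of 0.68 turned to -0.31 when cells without Xist or with a Y-linked UMI were left out.

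All 19 genes of the endoplasmic reticulum list, chaperones and translocon subunits that secretory proteins pass through, had positive ratios, and for 13 the interval lay above 0. The median was 0.21, against 0.03 for the same genes in all other cells. Calr stood at 1010 CPM in WT and 1224 in KO (0.28, 0.24 to 0.31), and the chaperone BiP (Hspa5) at 356.1 and 448.1 CPM (0.33, 0.27 to 0.39). With scaled thresholds Calr was 0.20 and Hspa5 0.28. In the Ms4a3 cells Calr was 0.21 (0.15 to 0.26) and Hspa5 0.36 (0.26 to 0.45). In the Irf8 cells Calr was 0.23 (0.15 to 0.32) and Hspa5 0.04 (-0.08 to 0.17), and in the cells with neither gene 0.19 (0.14 to 0.25) and 0.36 (0.26 to 0.46).

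Haem synthesis genes were higher in KO, with intervals above 0 for 8 of 9 and a median log2 ratio of 0.44, against 0.06 in all other cells. Coproporphyrinogen oxidase (Cpox) stood at 73.7 CPM in WT and 111.2 in KO. Erythroid genes moved with them: all 10 had intervals above 0, none was at 0, and their sum was 2069 CPM in WT and 3996 in KO. In 69 Mpo-high cells (34 WT, 35 KO) Klf1, an erythroid regulator, had at least 5 UMIs, and their median depth of 79242 UMIs was above that of the class, with 50 of them called doublets by Scrublet. Hepatocyte genes were also higher in KO, for 6 of 7 genes, at sums of 310.2 and 589.9 CPM. The part of mixed droplets or free RNA in the haem result was not tested.

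Lymphoid genes were lower in KO Mpo-high cells. Of 10 tested, 6 had intervals below 0, none above, and 3 passed 2-fold, with a median log2 ratio of -0.53 against 0.07 in all other cells. Dntt, the terminal transferase gene, had 0 UMIs. Ighm stood at 55.5 CPM in WT (UMIs in 142 cells) and 26.6 in KO (87 cells), a log2 ratio of -1.06 (-1.26 to -0.86), and the largest share in a single cell was 4.50%. Il7r, the interleukin 7 receptor gene, stood at 8.24 and 3.78 CPM (-1.13, -1.68 to -0.60), with UMIs in 54 and 22 cells. Flt3, a receptor of lymphoid-primed progenitors, was -0.53 (-0.80 to -0.27), and ran from -0.73 to -0.02 over 14 alternative settings. The lymphoid gene Gimap6 was also -0.53 (-0.69 to -0.37), but 0.39 (-0.56 to 1.37) with the rule on cells thinned to 8500 UMIs. Ebf1 was -1.72, but 43.7% of its UMIs came from 1 cell.

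The Ighm difference was found in each set. It was -0.59 (-0.89 to -0.31) in the Irf8 cells, -0.90 (-1.21 to -0.61) in the cells with neither gene, and -2.72 (-4.00 to -1.66) in the Ms4a3 cells, where it rested on 62 UMIs in 6 WT cells, 30 of them in 1 cell, and on 8 UMIs in 3 KO cells. With scaled thresholds Ighm was -1.03 and Il7r -1.09. At least 5 Ighm UMIs were found in 64 WT cells (17.5%) and 20 KO cells (6.29%), a difference of -11.2 points (-16.2 to -6.27). Counting cells with at least 1 UMI after thinning to 8500 UMIs gave 22.5% and 14.47%. In the same thinned cells the log2 ratio of the summed Ighm level was -0.76 (-1.16 to -0.36). With the rule itself on thinned cells (156 WT, 175 KO) it was -0.70 (-1.44 to 0.02). In erythroid cells an Ighm UMI was found in 2.27% and 2.42%. Ighm was thus lower in KO in the same selected cells at matched depth, whereas with the smaller thinned class the interval reached 0.

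Monocyte and dendritic genes were lower in KO Mpo-high cells for 6 of 10 and higher for 1 by their intervals, with a median of -0.27, whereas the median in all other cells was 0.30. Irf8 stood at 97.9 CPM in WT and 82.4 in KO (-0.25, -0.37 to -0.13). Ccr2 was -0.66 (-0.96 to -0.36) and Csf1r -0.28 (-0.52 to -0.05). Over 14 alternative settings Ccr2 ran from -1.44 to -0.25 and Csf1r from -0.51 to -0.0014. Within the Irf8 cells, Irf8 itself was -0.01 (-0.16 to 0.13) and Csf1r -0.20 (-0.52 to 0.11). These cells were cut on their Irf8 UMIs in libraries of unequal depth, so the Irf8 ratio there is a description. Macrophage genes moved in the same direction, with intervals below 0 for 6 of 7, sums of 107.1 CPM in WT and 54.5 in KO, and none at 0. They were concentrated in few cells: 12 WT and 4 KO cells held 96.8% of the C1qa, C1qb and C1qc UMIs. Their part in the monocyte values was not tested.

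**Figure D5:**
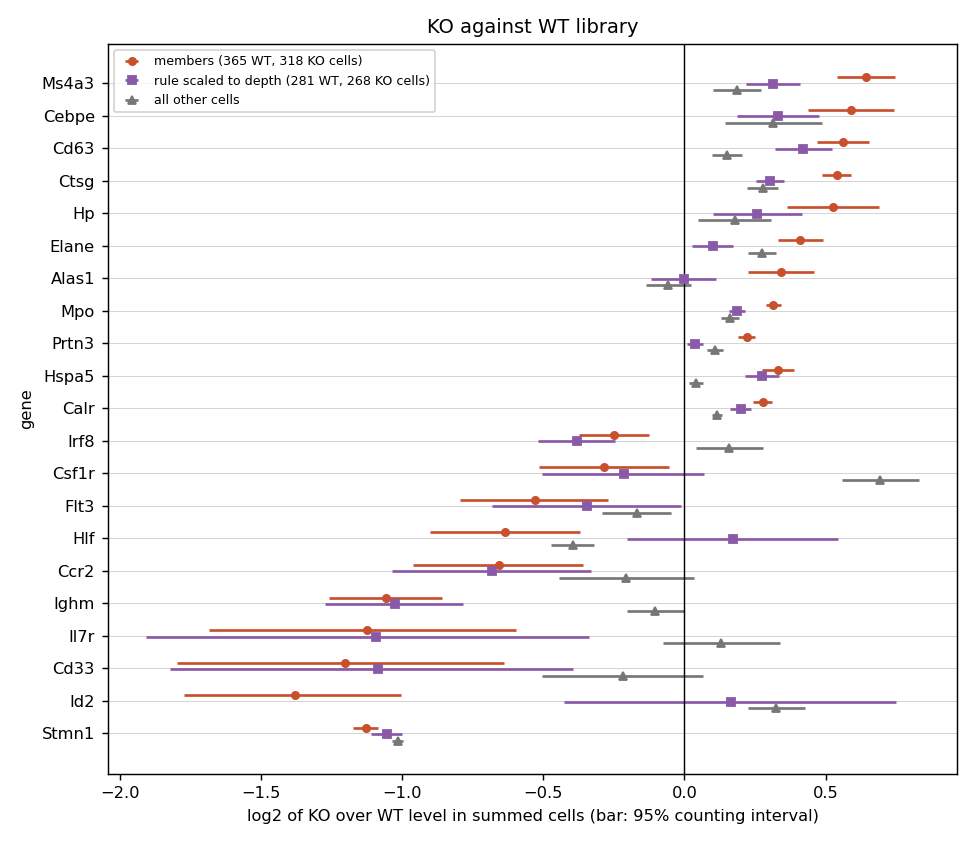
Log2 of the KO over the WT level in summed cells (x axis) for 21 genes (y axis), in Mpo-high cells (circles), in cells of a rule scaled to depth (squares) and in all other cells (triangles), with bars for the 95% counting interval. Elane (0.41 and 0.10) and Ctsg (0.54 and 0.30) lie nearer to 0 with the scaled rule, whereas Ighm (-1.06 and -1.03) stays below.

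Of 21 cytokine receptors and surface proteins tested, the interval lay above 0 for 3 and below 0 for 7, with a median log2 ratio of -0.14 against 0.01 in all other cells. Those below were Cd33, Ly6a, Flt3, Csf1r, Cd93, Cd48 and Cd34, and those above Fcgr2b, Fcgr3 and Ly6c2. The G-CSF receptor gene Csf3r stood at 21.1 CPM in WT and 23.6 in KO (0.17, -0.08 to 0.41). The common receptor subunit Csf2rb was 0.06 (-0.16 to 0.27). The sialic acid receptor gene Cd33 was the single member of that list past 2-fold, with 114 UMIs over 81 cells of WT and 34 over 28 of KO (-1.20, -1.80 to -0.64). Its ratio ran from -1.66 to -0.36 over 14 alternative settings. Among the myeloid regulators, Spi1 (0.01, -0.07 to 0.08) and Gfi1 (0.03, -0.31 to 0.36) did not differ beyond counting error. Cebpa was 0.31 (0.07 to 0.54), but -0.014 (-0.62 to 0.60) with the rule on thinned cells. Id2, an inhibitor of helix-loop-helix factors, was -1.38 (-1.77 to -1.004). Id2 turned to 0.16 with scaled thresholds, and Hlf, at -0.64 (-0.90 to -0.37), turned to 0.17.

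Of 26 NF-κB system genes tested, 1 passed 2-fold, Nfkbia itself. Among the others the interval lay above 0 for 3 (Nfkb2, Relb and Sod2) and below 0 for 3 (Ccl3, Ccl4 and Icam1). Nfkb2, the p100 subunit, had 70 and 71 UMIs, a log2 ratio of 0.56 (0.07 to 1.06), but -0.90 (-2.65 to 0.70) with the rule on thinned cells. Relb had 23 and 30 UMIs, with 0.93 (0.09 to 1.78). The adhesion receptor gene Icam1 was -0.47 (-0.87 to -0.08). The other inhibitors did not differ beyond counting error, with Nfkbib at 0.08 (-0.11 to 0.26) and Nfkbie at -0.52 (-1.15 to 0.09). Of the retinoic acid genes, 1 of 8 had an interval above 0 (Aldh1a3) and 2 below (Dhrs3 and Rxrb). Of 10 subunits and partners of the PRC2 complex, 0 had an interval apart from 0.

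Proliferation transcripts were abundant in Mpo-high cells of both genotypes. After thinning to 8500 UMIs, Mki67 or Top2a had a UMI in 92.9% of 365 WT cells (89.7 to 95.3) and 92.8% of 318 KO cells (89.3 to 95.4), and 98.6% and 97.5% without thinning. Of all other cells with at least 8500 UMIs, 86.7% of 2964 in WT and 93.3% of 3720 in KO did so after thinning. The S phase genes summed to 3551 CPM in WT and 3669 in KO (0.05, 0.03 to 0.07), and the G2/M genes to 6365 and 6614 CPM (0.06, 0.04 to 0.07). In all other cells the S phase genes summed to 4646 and 4715 CPM and the G2/M genes to 6063 and 6334. The S phase sum was thus lower in Mpo-high cells than in all other cells of either library. The specific granule genes, which were mostly Hp, summed to 43.4 and 63.1 CPM (0.54, 0.38 to 0.70).

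For the remaining lists, the members named are those with intervals apart from 0. Of 9 genes of protease activation and inhibition it lay above 0 for Serpinb1a and Stfa1, and below 0 for Cst3 and for Ctsc, the protease that activates the granule proteases (-0.36). Of 7 eosinophil, basophil and mast cell genes it lay above 0 for 4 (Prg2, Prg3, Mcpt8 and Ms4a2). Of 10 stem cell genes it lay above 0 for 2 (Adgrg1 and Lin28b) and below 0 for 3 (Hlf, Hmga2 and Hoxa9). Of 9 immediate early genes 2 lay above 0 (Dusp1 and Fosb) and 4 below (Egr1, Ier2, Jund and Zfp36). Of 6 interferon response genes, 2 lay below 0 (Ifi27l2a and Ifitm3). Of 7 S100 genes, 2 lay above 0, which were S100a8 and S100a9 of the rule, and 3 below (S100a6, S100a10 and S100a13). Pglyrp1 was the single gelatinase gene above 0 of 2, Pf4 and Itga2b the megakaryocyte genes above 0 of 4, and Lyve1 the single endothelial gene below 0 of 5.

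Most of the genes furthest from equality were not granule genes. Among genes with at least 200 UMIs, the 10 highest in KO were Pf4, Cstdc5, Gm12166, Fabp1, Ttr, Ank1, Fam210b, Hddc3, Mrap and Ahsg, from 2.60 to 1.29. Pf4, a platelet chemokine, had 35.6% of its UMIs in a single cell, and Fabp1, Ttr and Ahsg, which hepatocytes make, had 40%, 32.0% and 35.0%. Hddc3 (1.36, and 1.14 in other cells) and Gm12166 (1.63 and 1.44) were spread over many cells and higher in KO in all other cells too. The 10 lowest were Nfkbia, Id2, Hist1h2ad, Tox, Stmn1, Gm21887, Dynlt1a, AI506816, Lgals3 and Ighm. Stmn1, a microtubule regulator, stood at 1081 CPM in WT and 493.9 in KO (-1.13), and at -1.02 in all other cells. Tox, at -1.16 (-1.64 to -0.70), had 0.07 in all other cells, and Lgals3, at -1.06 (-1.44 to -0.70), had 0.48. Over 14 alternative settings Tox ran from -1.97 to -0.93 and Lgals3 from -1.55 to -0.34.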

How the data were processed

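The authors processed each library with Cell Ranger (6.0.0, build mm10 in the submitters' notes) and deposited UMI counts, not normalised, for every gene in every barcode. The annotation release was not given in the sources used here. Both libraries listed 32285 genes, and 382 WT and 511 KO barcodes were removed by the filter. Counts of selected cells were summed per library and scaled to CPM with Python 3.11.15, numpy 2.4.6, scipy 1.17.1 and pandas 2.3.3. Ratios have exact conditional (Clopper-Pearson) intervals and shares exact Clopper-Pearson intervals. With 1 library per genotype, no p-value was computed. Genes with at least 50 UMIs over both libraries entered the 2-fold counts. Named genes were the rule and marker genes, genes of 27 lists with the most UMIs or past 2-fold, the 20 highest ratios to other cells (at least 500 UMIs), and the 10 highest and 10 lowest KO over WT ratios (at least 200 UMIs). Haemoglobin, mitochondrial and Y-linked genes and Xist were left out of these 10 highest and 10 lowest, but not of the 2-fold counts. Further genes, named beside the Ms4a3, Irf8, Ighm, eosinophil and S100 sets and by likeness, were chosen after their values were seen. Members and lists were chosen with earlier results of these data known. Scrublet (in scanpy 1.11.5, run at an expected rate of 5%) marked doublets, which were kept. The intervals were checked on simulated data. Results for some genes are not reported here.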

Additional observations from a re-analysis of the deposited data

How the results depend on the processing

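No paired analysis was possible because there was only 1 library of each genotype. The share of Mpo-high cells in KO minus WT (-3.36 points) was -6.16 with at least 5 UMIs of Mpo and the proteases, -2.06 with thresholds scaled to depth and -0.35 after thinning to 8500 UMIs. Genes past 2-fold, 79 higher and 65 lower in KO, numbered 122 higher with at least 5 UMIs, 35 and 15 in thinned members, 22 and 17 with the rule on thinned cells, 35 lower with scaled thresholds, 167 and 187 with at least 20 UMIs per gene, and 18 and 14 with at least 200. They numbered 42 higher without cells that carried Klf1, C1q, Pf4 or Alb transcripts (mixed cells) and 40 higher in cells that had Xist but no Y-linked UMI (Xist cells). The log2 ratio of the specific granule sum (0.54) was 0.83 in thinned members, 0.29 with scaled thresholds, 0.86 as a mean over cells and 0.93 without mixed cells. The S phase sum (0.05) was 0.027 with at least 5 UMIs, 0.016 without Scrublet calls, 0.028 over a total without haemoglobin, mitochondrial, ribosomal and rule genes, 0.026 without mixed cells and 0.017 in Xist cells. The G2/M sum (0.06) was 0.10 and 0.037 with at least 5 and 20 UMIs, 0.12 with scaled thresholds, 0.037 under median of ratios scaling, 0.036 over that reduced total, 0.089 in Xist cells and 0.086 with the rule on thinned cells. Signs turned for Ms4a6c in thinned members (0.23), with scaled thresholds for Id2 (0.16), Hlf (0.17) and Alas1 (-0.0015), in Xist cells for Stfa1 (-0.31), and with the rule on thinned cells for Pf4 (-1.65), Hlf (1.42), Gimap6 (0.39), Cebpa (-0.014) and Nfkb2 (-0.90). Fewer UMIs per cell or fewer cells enter the thinned settings, and the cause of the other shifts was not tested. Over 14 alternatives, the log2 ratio of Elane ran from 0.10 to 0.85, that of Ms4a3 from 0.31 to 0.98 and that of Ighm from -1.33 to -0.70. The rule on thinned cells, the omission of mixed cells and the Xist cells were chosen after seeing the data. Depth limits genes of few UMIs, and 1 pool per genotype limits every comparison: differences between embryos cannot be told apart from genotype.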
